A study of Rattus norvegicus with 9 samples.

Results

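The genes by which cells sense bacterial lipopolysaccharide (LPS) and other microbial or damage-derived molecules were followed in rat dorsal root ganglion (DRG). The set has 9 members of the 20194 genes in the deposited table, each matched by its symbol: Lbp, Cd14, Ly96, Tlr2, Tlr3, Tlr4, Tlr7, Myd88 and Ticam1. Lbp was selected on its measured values, the higher level in SNI + G15 than in SNI, so it is described here without a test. The other 8 were listed for their function. In the order above their NCBI gene identifiers are 29469, 60350, 448830, 310553, 364594, 29260, 317468, 301059 and 363328. RNA-Seq was available for 3 sham, 3 spared nerve injury (SNI) and 3 SNI + G15 libraries of DRG from adult male Sprague Dawley rats. In SNI the tibial and common peroneal branches of the sciatic nerve are cut and tied while the sural branch is kept, which gives lasting allodynia. SNI + G15 animals had the same injury and received G15, an antagonist of the G protein-coupled oestrogen receptor GPER, through an intrathecal catheter placed on day 5 after SNI, with 24 h given for the injection. The solvent was DMSO, at a share on which the labels and the study's methods differ. The titles of the sham and SNI libraries mark them as controls for G15, without saying whether these animals carried a catheter or received the vehicle, so G15 and its delivery cannot be told apart. The labels do not say that replicates were separate animals and the study's methods and its supplement differ on the number of rats, so p-values measure the spread between these samples. All groups were lumbar DRG, a tissue with neurons, glia, macrophages and connective tissue, so fewer cells of a type and less RNA per cell cannot be distinguished in these values.

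In LPS sensing, the secreted LPS-binding protein (Lbp) hands LPS to Cd14, which passes it to the pair of Ly96 (MD-2) and Tlr4 at the cell surface. Tlr2 senses bacterial lipoproteins, Tlr3 double-stranded RNA and Tlr7 single-stranded RNA, the last pair inside endosomes. Myd88 is the adaptor of most Toll-like receptors, and Ticam1 (TRIF) is the adaptor of Tlr3 and one of those of Tlr4; both lead to NF-kB, and Ticam1 also to interferon genes. Macrophages express most of these receptors. Tlr4 is also known on sensory neurons and glia, and LBP is best known as a plasma protein made by the liver in the acute phase.

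Library totals lay between 18484557 and 18756736 estimated reads. Atf3, a transcription factor induced in axotomised neurons, lay between 3.61 and 4.30 FPKM in sham, between 138 and 143 in SNI and between 132 and 140 in SNI + G15, so the injury labels were borne out (FPKM, fragments per kilobase of transcript scaled by library total, is a level per length). The summed level of 7 sensory neuron markers was between 8930 and 9850 FPKM in every library. Single markers went both ways (edgeR, adjusted p below 0.05): of the 7, 2 were higher and 3 lower in SNI than in sham. Of all tested genes, 23.3% were higher and 22.4% lower. Against sham, SNI + G15 had 2 markers higher and 4 lower, beside 21.4% and 21.9% of all tested genes. Gper1, the target of G15, stayed between 0.43 and 0.85 FPKM and was below the filter for testing. One SNI + G15 library, replicate 3, stood further from its group than any other: the chi-square per degree of freedom was 9.24 and 8.93 against the other two SNI + G15 libraries and between 2.70 and 4.92 for the pairs within sham and within SNI, with 3.29 for SNI + G15 replicates 1 and 2. The main counts are given with and without this library.

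The members include several that rose together after injury, so the sequences before their start sites are shown as a description. RefSeq promoters (build GRCr8) were at hand for 6 of the 9 members, and for 3 of them, Myd88, Tlr3 and Tlr4, the 250 bases before the start site lay outside every annotated transcript of the gene. Capitals mark matches, on either strand, to 4 motifs: an interferon regulatory factor (IRF) type motif (GAAA, any 2 bases, GAAA), a STAT-type motif (TTC, any 3 bases, GAA), an NF-kB-type motif (GGG, any 5 bases, CC) and an AP-1 motif (TGANTCA).
Myd88 (chr8:127956231-127956480, minus strand): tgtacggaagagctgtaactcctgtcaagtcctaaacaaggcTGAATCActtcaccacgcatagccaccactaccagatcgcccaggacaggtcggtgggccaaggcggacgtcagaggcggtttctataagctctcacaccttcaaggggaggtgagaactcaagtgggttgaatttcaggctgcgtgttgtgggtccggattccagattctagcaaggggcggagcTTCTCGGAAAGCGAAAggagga
Tlr3 (chr16:53554666-53554915, plus strand): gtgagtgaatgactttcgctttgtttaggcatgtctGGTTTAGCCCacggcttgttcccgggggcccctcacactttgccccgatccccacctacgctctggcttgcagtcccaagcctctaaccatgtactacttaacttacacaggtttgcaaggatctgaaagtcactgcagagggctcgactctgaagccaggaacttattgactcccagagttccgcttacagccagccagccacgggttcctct
Tlr4 (chr5:85160997-85161246, plus strand): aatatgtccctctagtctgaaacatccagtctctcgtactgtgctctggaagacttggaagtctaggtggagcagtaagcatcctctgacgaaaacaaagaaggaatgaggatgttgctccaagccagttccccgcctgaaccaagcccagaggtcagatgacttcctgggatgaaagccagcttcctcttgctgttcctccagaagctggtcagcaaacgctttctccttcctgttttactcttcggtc

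The Myd88 window held an IRF-type match from 16 to 7 bases before the start site, a STAT-type match from 22 to 14 bases before it that overlaps the IRF-type match, and an AP-1 match from 208 to 202 bases before it. Tlr3 held 1 NF-kB-type match, and Tlr4 held no match to these 4 patterns. Among the same windows of 33469 RefSeq promoters, 3.41% held the IRF-type motif, 7.67% the STAT-type motif, 42.3% the NF-kB-type motif and 6.34% the AP-1 motif. A match to letters is not a measured binding site.

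In sham DRG these genes were expressed at low levels, with Myd88 the highest at 6.70 ± 0.23 FPKM (SD, n = 3). The LPS-handling genes came next. Cd14 had 3.08 ± 0.41 FPKM, Lbp 2.81 ± 0.27 and Ly96 2.25 ± 0.28. The values of Cd14 and Lbp overlapped, whereas those of Lbp lay above those of Ly96. The receptors and Ticam1 formed the lower end of the order: Tlr4 at 1.33 ± 0.069, Tlr3 at 1.28 ± 0.032, Tlr7 at 1.09 ± 0.17, Ticam1 at 1.01 ± 0.095 and Tlr2 at 0.903 ± 0.081. Each of these 5 overlapped its neighbour in that order. By its mean FPKM in sham, Tlr2 was at percentile 5.48 of the tested genes and Myd88 at percentile 42.0.

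**Figure D1:**
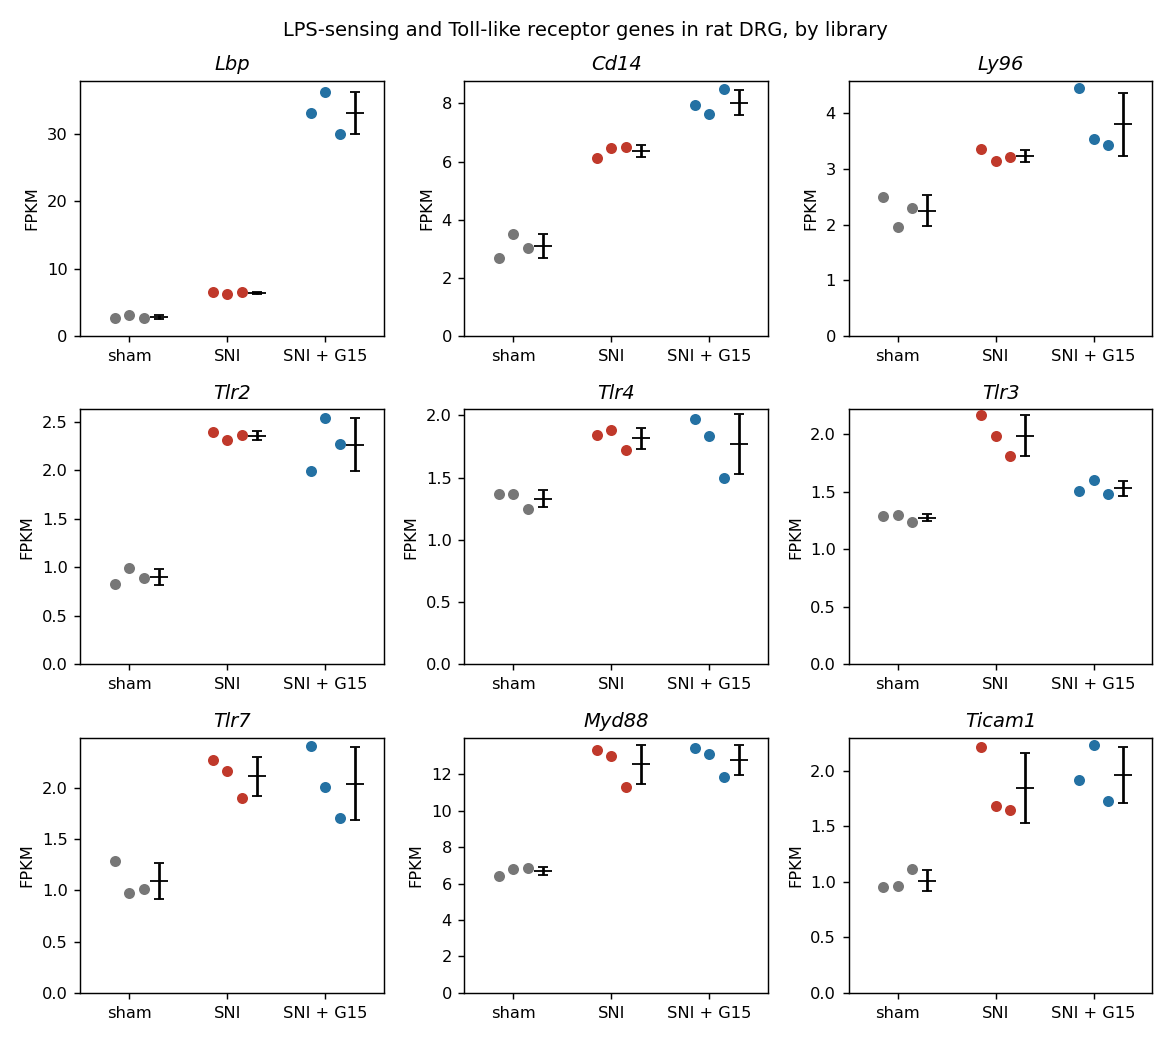
FPKM (y axis, from 0) of each of the 9 genes in the 3 sham, 3 SNI and 3 SNI + G15 libraries; points are libraries, and the bars give the mean and SD. For all 9 genes every SNI library lies above every sham library. The groups did not overlap, in either direction, for 53.9% of all tested genes. Tlr2 passed the filter only through the injured groups and adds no support. Lbp, which was chosen for its higher level in SNI + G15, stands apart there, between 30.0 and 36.2 FPKM.

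To determine which of these genes differed after nerve injury, SNI was compared with sham. Of the 8 members other than Lbp, 7 were higher in SNI at an adjusted p below 0.05 and none was lower (edgeR's quasi-likelihood test, p-values adjusted over 14305 genes by the Benjamini-Hochberg method; SE below is the standard error). Of all tested genes, 45.7% were called in this comparison and 23.3% were called higher. The median log2 fold change of the 8 was 0.83, against 0.0010 over all tested genes. Tlr2 had passed the filter of 1 FPKM only through the injured groups. Passing in this way favours a rise, so its call adds no support to the count. The 3 SNI values lay above the 3 sham values for each of the 8 genes, and the groups did not overlap, in either direction, for 53.9% of all tested genes.

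Among the receptors, Tlr2 had the largest fitted rise, which its passing the filter only through the injured groups favoured. Its 95% interval, from 1.02 to 1.63, overlapped that of Tlr7, from 0.56 to 1.12. It had 0.83, 0.99 and 0.89 FPKM in the 3 sham libraries and 2.40, 2.31 and 2.36 in SNI. The groups were far apart and the SNI values nearly alike. The log2 fold change was 1.33 (SE 0.14; edgeR, adjusted p = 2.20e-05).

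Tlr7 followed, with 1.29, 0.97 and 1.01 FPKM in sham and 2.27, 2.16 and 1.90 in SNI. Its log2 fold change was 0.84 (SE 0.13; edgeR, adjusted p = 0.000342). Tlr3, the other endosomal receptor of the set, rose from 1.29, 1.30 and 1.24 FPKM to 2.17, 1.99 and 1.81. The lowest SNI library was still well above the highest sham library. The log2 fold change, 0.56 (SE 0.10; edgeR, adjusted p = 0.00133), was fitted on gene counts. Tlr3 has 4 transcripts in the deposited table, among which its FPKM is divided.

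Tlr4, the LPS receptor itself, had the smallest fitted rise of the receptors. Its 95% interval, from 0.17 to 0.67, overlapped that of Tlr3, from 0.33 to 0.79. Tlr4 was at 1.37, 1.37 and 1.25 FPKM in sham and 1.84, 1.88 and 1.72 in SNI. The log2 fold change of 0.42 (SE 0.11) passed in edgeR (adjusted p = 0.0123) and did not in DESeq2's Wald test (adjusted p = 0.0791), where the estimate was also 0.42; over all 13 alternatives the adjusted p lay between 0.0125 and 0.0791.

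The partners of Tlr4 at the cell surface differed in the fitted size of the rise, but their 95% intervals overlapped. That of Cd14 ran from 0.78 to 1.26. Cd14, the co-receptor that loads LPS, was at 2.69, 3.51 and 3.04 FPKM in sham and 6.11, 6.46 and 6.49 in SNI, a log2 fold change of 1.02 (SE 0.11; edgeR, adjusted p = 2.56e-05). Every SNI library thus held more Cd14 than any sham library. Ly96 had 2.50, 1.95 and 2.29 FPKM in sham and 3.35, 3.14 and 3.21 in SNI. The groups did not overlap, but the log2 fold change of 0.50 (95% interval from 0.047 to 0.94) did not pass in edgeR (adjusted p = 0.0685). Ly96 had only between 27.1 and 61.3 estimated reads per library. It passed with limma-trend on log2(FPKM + 1) and on log2(FPKM + 0.1) (adjusted p = 0.00469 and 0.00546), and the adjusted p lay between 0.00469 and 0.217 over the 13 alternatives.

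Both adaptors rose. Myd88 was at 6.43, 6.82 and 6.84 FPKM in sham and 13.3, 13.0 and 11.3 in SNI, with a log2 fold change of 0.86 (SE 0.073; edgeR, adjusted p = 4.85e-06). Ticam1 was at 0.95, 0.96 and 1.12 FPKM in sham and 2.21, 1.68 and 1.65 in SNI, with a log2 fold change of 0.81 (SE 0.16; edgeR, adjusted p = 0.00182). The estimated counts of Cd14, Ly96 and Ticam1 were not whole in 9 of 9 libraries, and those of Tlr7 in 1, as happens where reads are shared out between similar sequences, so these values are less certain than those of the other members, whose counts were whole throughout.

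Macrophage markers moved with these receptors. The summed level of 8 markers lay between 49.6 and 55.7 FPKM in sham and between 110 and 123 in SNI, and 7 of the 8 were called higher. Of all tested genes, 23.3% were called higher in this comparison and 22.4% lower. The summed level of 7 neutrophil markers went from between 123 and 146 to between 192 and 227 FPKM, with 4 of 6 tested called higher, while Ltf, a neutrophil granule gene, was at or near 0 in every library. No marker of either list other than Ltf had a mean below 0.1 FPKM in a group. Other lists moved as well. The summed level of 4 erythroid markers was between 96.0 and 99.7 FPKM in sham and between 321 and 328 in SNI (4 of 4 called higher), that of 5 T cell markers went from between 3.16 and 3.84 to between 5.92 and 6.41 (2 of 5 called higher), and that of 5 Schwann cell markers from between 5144 and 5256 to between 2843 and 2901 (4 of 5 called lower). The part of these cell types in the rise of the receptors was not tested.

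To determine which members differed after G15 in injured animals, SNI + G15 was compared with SNI. Cd14 alone of the 8 was called, and it was higher; 1 of 8 is close to the 15.2% of all tested genes that were called, so the number says nothing particular to these genes. Of all tested genes, 7.98% were called higher and 7.25% lower. At an unadjusted p below 0.05, 2 of the 8 passed, Cd14 and Tlr3. The median log2 fold change of the 8 was 0.028, against 0.0063 over all tested genes, and the groups did not overlap for 3 of the 8 and for 38.3% of all tested genes. The share called over all tested genes depended on the libraries used: it was 7.68%, 6.47% and 6.24% without SNI replicate 1, 2 and 3. Without SNI + G15 replicate 1, 2 and 3 it was 15.5%, 11.1% and 16.3%. With replicate number fitted as a block it was 9.03%.

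Cd14 rose further, from 6.11, 6.46 and 6.49 FPKM in SNI to 7.94, 7.63 and 8.48 in SNI + G15. The groups did not overlap. The log2 fold change was 0.37 (SE 0.079; edgeR, adjusted p = 0.0151). This call was lost when SNI replicate 1, 2 or 3 was left out (adjusted p = 0.0625, 0.0596 and 0.0536, edgeR) and in the Wald test of DESeq2 (adjusted p = 0.0645). Over the 13 alternatives the adjusted p lay between 0.0153 and 0.0645. Of the 2 annotated Cd14 transcripts, the leading one was at 5.89 ± 0.33 FPKM in SNI and 6.80 ± 0.056 in SNI + G15 (SD, n = 3). The minor one was at 0.46 ± 0.16 and 1.22 ± 0.46 FPKM. Cd14 counts were not whole in any library. The summed macrophage markers were between 121 and 124 FPKM in SNI + G15, with 2 of 8 called higher than in SNI, or 3 of 8 without SNI + G15 replicate 3; their part in the Cd14 difference was not tested.

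Tlr3 went the other way. It had 2.17, 1.99 and 1.81 FPKM in SNI and 1.51, 1.60 and 1.48 in SNI + G15, without overlap. The log2 fold change of -0.30 (95% interval from -0.52 to -0.068) did not pass after adjustment (adjusted p = 0.0796, edgeR), and over the 13 alternatives the adjusted p lay between 0.0559 and 0.295. The deposited division of Tlr3 among its transcripts was unstable: the transcript with 59.5% of the Tlr3 level in SNI had 15.9% in SNI + G15, where it was listed at 0 in 2 of 3 libraries and at 0.73 FPKM in the other.

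For the remaining 6 members no difference between SNI + G15 and SNI was detectable, and the intervals show what size remained possible. For Tlr2 the values in SNI + G15 were 1.99, 2.54 and 2.27 FPKM and the log2 fold change was -0.028 (95% interval from -0.28 to 0.23). For Tlr4 they were 1.97, 1.83 and 1.5 FPKM, with a log2 fold change of -0.022 (95% interval from -0.30 to 0.26). Both sets overlapped those of SNI. For Tlr7, with 2.41, 2.01 and 1.70 FPKM, the log2 fold change was 0.0062 (95% interval from -0.30 to 0.31). Myd88, at 13.4, 13.1 and 11.9 FPKM, had the narrowest interval, from -0.12 to 0.22 around 0.049. Ticam1 had 1.92, 2.23 and 1.73 FPKM and an interval from -0.27 to 0.43 around 0.078, and Ly96 had 4.45, 3.53 and 3.42 FPKM and an interval from -0.15 to 0.65 around 0.25. Ly96 was the member of these 6 whose SNI and SNI + G15 values did not overlap.

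**Figure D2:**
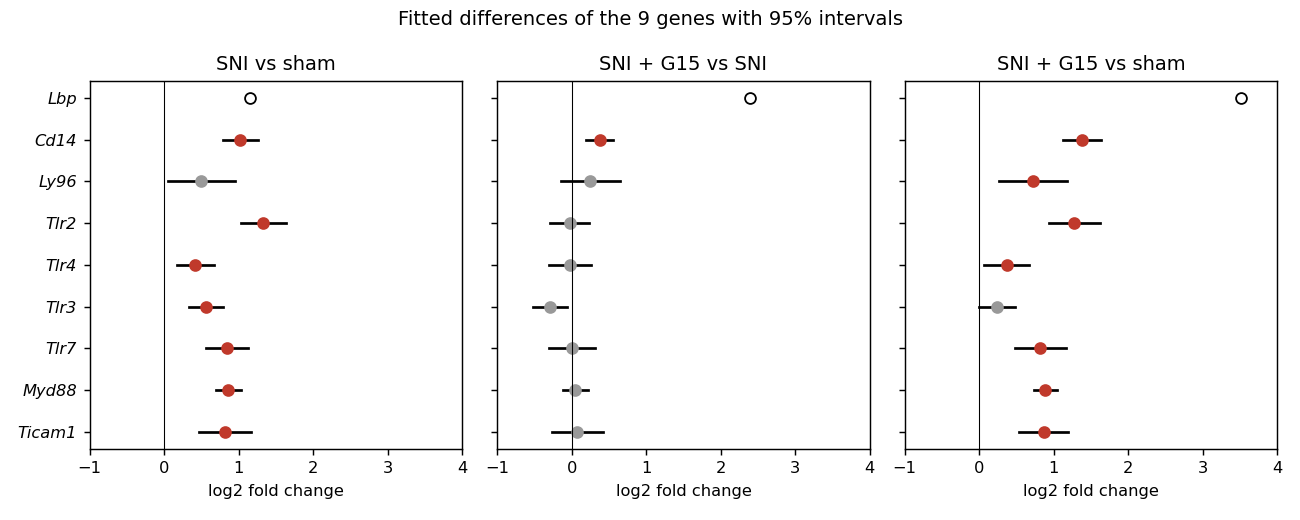
Fitted log2 fold changes (x axis) of the 9 genes in the 3 comparisons; lines are 95% intervals, red points passed an adjusted p of 0.05 in edgeR, grey points did not, and the open point is Lbp, which is described without a test. The members lie to the right of 0 in both comparisons with sham. Lbp has no interval. Of the other members, all but Cd14 and Tlr3 have intervals across 0 between SNI + G15 and SNI.

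Lbp was the exception in size, and it was chosen for that. It had 2.68, 3.12 and 2.64 FPKM in sham, 6.53, 6.16 and 6.46 in SNI, and 33.1, 36.2 and 30.0 in SNI + G15. The 3 groups were fully apart, and the values within each were close. In estimated reads, these were between 91 and 108, between 213 and 225, and between 1046 and 1240, whole in all 9 libraries, and 1 annotated transcript carried the gene. The fitted ratio was 2.22 for SNI over sham, 5.23 for SNI + G15 over SNI and 11.4 for SNI + G15 over sham. Lbp ranked 41 of 14305 tested genes by its log2 fold change of 2.39 between SNI + G15 and SNI, which chose it. It moved from the third place among the 9 members in sham to the first in SNI + G15, above Myd88, and from the 22.9th to the 80.5th percentile of tested genes.

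Because LBP is best known from liver, plasma protein genes were examined beside it. The summed level of 5 hepatocyte markers lay between 42.5 and 46.3 FPKM in sham, between 74.7 and 78.6 in SNI and between 90.1 and 96.6 in SNI + G15, nearly all of it from Serpina1 and Tf, which are not restricted to liver. The defining marker albumin (Alb) lay between 0.05 and 0.27 FPKM in every library, and Apoa1 and Apoa2 did not exceed 0.37 and 0.42 FPKM. Of 16 relatives of Lbp and acute-phase plasma protein genes, 9 were below the filter, none above 0.65 FPKM, among them Bpi, the closest relative listed, Crp and the fibrinogen genes Fga, Fgb and Fgg. The 7 that were tested were all higher in SNI than in sham, a count that includes Serpina3n, which passed the filter through the injured groups. Of all tested genes, 23.3% were called higher. The largest were Serpina3n, a serine protease inhibitor, A2m, a broad protease inhibitor, and C3, the central complement component, with log2 fold changes of 7.39, 2.81 and 2.62.

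After G15 these genes parted. A2m rose from 36.8 ± 0.82 to 71.4 ± 5.6 FPKM (SD, n = 3), a log2 fold change of 0.97. Pltp, a phospholipid transfer protein of the same family as Lbp, rose by a log2 fold change of 0.65. Serpina3n fell from 64.7 ± 2.0 to 28.8 ± 0.81 FPKM, and C3 fell by 0.50 on the log2 scale. Adjusted p-values of these 4 lay at or below 0.00112 (edgeR), and 3 of the 7 were not called. The estimated counts of A2m and Pltp were not whole in 9 libraries and those of Serpina3n in 5.

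Markers of several other cell types also differed between SNI + G15 and SNI. The summed level of 5 fibroblast markers lay between 393 and 404 FPKM in sham, between 382 and 384 in SNI and between 516 and 539 in SNI + G15. Msln, a mesothelial marker, was between 0.31 and 0.33 FPKM in sham, between 0.08 and 0.13 in SNI and between 1.52 and 2.26 in SNI + G15, but the other mesothelial markers, Upk3b, Lrrn4 and Wt1, did not exceed 0.24 FPKM in any library. Their part in the level of Lbp was not tested. Of the 5 fibroblast markers, 2 were called higher and 1 lower in SNI than in sham (edgeR). In SNI + G15 5 were called higher than in SNI, with and without SNI + G15 replicate 3. Of all tested genes, 7.98% were called higher there. Schwann cell markers summed to between 2843 and 2901 FPKM in SNI and between 3067 and 3188 in SNI + G15 (4 of 5 called higher). Erythroid markers went from between 321 and 328 to between 191 and 226 FPKM (4 of 4 called lower). The part of these lists was not tested either.

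The profile of Lbp over the 9 libraries was compared with those of the other 14304 tested genes, by the root mean square difference of mean-centred log2(FPKM + 1). The nearest 5 genes were Ucn2, Chi3l1, Fam111a, Hmox1 and Dstnl1, at differences from 0.31 to 0.63 log2 units. Ucn2, which encodes the peptide urocortin 2, had a mean of 0.187, 2.21 and 8.83 FPKM in sham, SNI and SNI + G15. Chi3l1, a chitinase-like secreted protein, had 4.44, 11.6 and 24.1 FPKM. Hmox1, the inducible heme oxygenase, had 12.7, 22.4 and 45.8 FPKM. Fam111a had 0.363, 0.557 and 3.64 FPKM. Dstnl1 had 4.55, 4.18 and 22.2 FPKM, with counts that were not whole in any library. Likeness of profile says nothing of shared control.

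**Figure D3:**
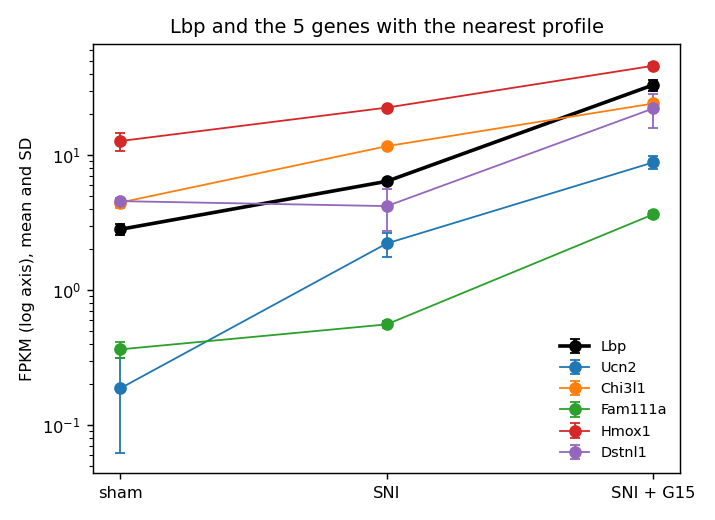
Mean FPKM (y axis, log scale) with SD over 3 libraries for Lbp (black) and the 5 tested genes with the nearest profile, in sham, SNI and SNI + G15; lines join group means. All 6 genes are highest in SNI + G15, where Lbp has a mean of 33.1 FPKM. The choice of genes favoured this, as Lbp was chosen for its level there and the 5 for likeness to Lbp.

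Compared with sham, SNI + G15 again had 7 of the 8 members higher and none lower (edgeR), where 43.2% of tested genes were called and 21.4% were called higher; the median log2 fold change was 0.84, against -0.0037 over all tested genes. Here too the values of all 8 lay above those of sham, where 52.9% of tested genes had groups that did not overlap. Tlr2 is in these counts and in the median. It passed the filter only through the injured groups, so it adds no support to them. This comparison shares its sham libraries with the first and its SNI + G15 libraries with the second, so the values are set side by side only. The log2 fold changes were 1.37 for Cd14, 1.28 for Tlr2, 0.89 for Myd88, 0.87 for Ticam1, 0.82 for Tlr7, 0.72 for Ly96, 0.37 for Tlr4 and 0.24 for Tlr3. Tlr3 was the member not called (adjusted p = 0.0970, edgeR). Without SNI + G15 replicate 3 the count was again 7 here and again 1 between SNI + G15 and SNI.

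The Tlr4 call in this comparison was weak. Its adjusted p of 0.0474 (edgeR) became between 0.0143 and 0.152 over the 13 alternatives, and it passed in 3 of them. Without sham replicate 1, 2 or 3 it was 0.0899, 0.0818 and 0.130, and without SNI + G15 replicate 1 or 2 it was 0.152 and 0.116. Ly96 (adjusted p = 0.0164, edgeR) was lost without sham replicate 2 and without SNI + G15 replicate 1 (0.0519 and 0.0632).

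The other genes of the pathway were taken from 8 lists by role, with 93 genes beside the members, 71 of them tested. Between SNI and sham, 50 of the 71 were called higher and 4 lower, 76.1% against the 45.7% of all tested genes, and their median log2 fold change was 0.40. Of the 71, 10 reached 1 FPKM in no sham library, and 9 of these are among the 50. They are Tlr1, Tlr8, Tlr13, Cd180, Serpina3n, Vcan, Il6, Cxcl1 and Nfkbiz. As they passed the filter only through injured groups, their rise was favoured by it, and the shares are no support for a difference from all genes. In SNI + G15 against SNI, 9 were higher and 8 lower, 23.9% against 15.2%, with a median of -0.014. Cxcl1, 1 of the 9, passed the filter only through SNI + G15, where it is high, which favoured its call. The shares in this comparison are therefore no support for a difference from all genes either. Without SNI replicate 1, 2 or 3 these shares were 19.7% against 7.68%, 16.9% against 6.47% and 18.3% against 6.24%. Between SNI + G15 and sham, 42 were higher and 5 lower, 66.2% against 43.2%, again with 9 of those 10 among the 42. Without SNI + G15 replicate 3 the last pair of comparisons gave 21 and 49 called genes, in place of 17 and 47. The counts per list below stand beside these shares over all tested genes. Between SNI and sham, 23.3% were called higher and 22.4% lower. Between SNI + G15 and SNI, 7.98% were called higher and 7.25% lower.

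Among 9 other Toll-like receptors, 4 were tested and all 4 were higher in SNI than in sham. Tlr1, the partner of Tlr2 for lipoproteins, went from 0.667 ± 0.061 to 1.97 ± 0.046 FPKM (SD, n = 3; log2 fold change 1.54), Tlr8 rose by a log2 fold change of 1.34 and Tlr13 by 1.02. Tlr1, Tlr8 and Tlr13 had sham means below 1 FPKM, so the filter favoured this direction. Tlr5, Tlr9, Tlr10, Tlr11 and Tlr12 did not exceed 0.33 FPKM. In SNI + G15, Tlr1 fell to 1.10 ± 0.22 FPKM, a log2 fold change of -0.82 against SNI (adjusted p = 0.0140, edgeR), and its counts were not whole in any library. The other 3 were not called.

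Of 8 folding, trafficking and accessory proteins, 7 were higher in SNI. They included Cd180, a Toll-like receptor homologue of myeloid cells and B cells that restrains Tlr4, with a log2 fold change of 1.64, Cd36, a scavenger receptor that works with Tlr2, with 0.89, and Unc93b1, which carries the endosomal receptors, with 0.56. Cd180 passed the filter only through the injured groups. Cd180 was the gene of this list called between SNI + G15 and SNI, where it fell from 2.42 ± 0.14 to 1.53 ± 0.22 FPKM (SD, n = 3; adjusted p = 0.0125, edgeR).

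Downstream of the receptors, injury moved genes both ways. Of 17 tested adaptors and kinases, 9 were higher and 2 lower in SNI, and the median of their log2 fold changes was 0.22. Ikbke, a kinase of the interferon arm, rose by a log2 fold change of 0.78, Irak4, which acts right after Myd88, by 0.67 and Irak2 by 0.56. Traf3 and Tbk1, which act in the interferon arm below Ticam1, fell by 0.21 and 0.18 on the log2 scale. None of the 17 was called between SNI + G15 and SNI.

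Of 8 transcription factors, 6 were called higher in SNI than in sham, beside 23.3% of all tested genes. Irf5 led with a log2 fold change of 0.70, followed by Relb with 0.47. Of 10 negative regulators, 7 were higher and none lower. Tnfaip8l2 rose by a log2 fold change of 1.07, Irak3, an inactive relative of the Irak kinases, by 1.02 and Socs1, an inhibitor of cytokine signalling, by 1.02. After G15 none of the 10 regulators was called, and 2 transcription factors were. Irf7, the interferon regulatory factor below Tlr7, fell from 42.0 ± 1.9 to 16.5 ± 1.6 FPKM (SD, n = 3). In sham it was at 41.0 ± 2.2 FPKM and was not called between SNI and sham (adjusted p = 0.957, edgeR). Against sham, its log2 fold change in SNI + G15 was -1.36. Irf3, the interferon regulatory factor below Tlr3, rose from SNI to SNI + G15 by a log2 fold change of 0.20 (adjusted p = 0.0352, edgeR).

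Proposed endogenous ligands of Tlr2 and Tlr4 went both ways after injury: 3 of 8 were higher and 2 lower in SNI. The matrix proteoglycan Vcan rose by a log2 fold change of 1.16, S100a9 by 0.69 and S100a8 by 0.52, while the matrix proteins Tnc and Dcn fell by 0.23 and 0.17 on the log2 scale. Vcan passed the filter only through the injured groups. Between SNI + G15 and SNI, 5 of the 8 were higher and none lower, with log2 fold changes of 0.57 for Bgn, 0.53 for Dcn and 0.46 for Vcan. Of all tested genes, 7.98% were called higher and 7.25% lower. Without SNI + G15 replicate 3 the same 5 were higher and 1, Hspd1, was lower. Dcn is also one of the fibroblast markers given above.

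Of 16 inducible products of these pathways, 9 were tested, and 7 of them were higher in SNI, among them Il6, Cxcl1 and Nfkbiz, which reached 1 FPKM in no sham library. Ccl2, a monocyte attractant, went from 13.6 ± 2.7 to 51.9 ± 4.3 FPKM (SD, n = 3), a log2 fold change of 1.90. Il6 had at most 1 read in a sham library and between 48 and 59 in SNI. Tnf, Il10, Il12b, Ifnb1, Cxcl2, Ptgs2 and Nos2 stayed below the filter, at no more than 0.60 FPKM. Between SNI + G15 and SNI, 3 were lower and 1 higher. Cxcl10 and Ccl5, both interferon-responsive chemokines, fell by 0.64 and 0.97 on the log2 scale (adjusted p = 0.00102 and 0.0104, edgeR). SNI + G15 was below sham too, by 0.38 and 0.71 (adjusted p = 0.00525 and 0.0235, edgeR), for Ccl5 not without SNI + G15 replicate 3. Ccl5 was not called between SNI and sham (adjusted p = 0.243, edgeR). Il6 went to between 27 and 33 reads (adjusted p = 0.0221, edgeR). Cxcl1, a neutrophil attractant, was at 0.610 ± 0.12 FPKM in SNI and 1.24 ± 0.15 in SNI + G15 (SD, n = 3, adjusted p = 0.0498, edgeR). Cxcl1 passed the filter only through SNI + G15, where it is high, and without SNI + G15 replicate 3 it was not called, while the 3 lower genes were. The summed T cell markers, which moved with Ccl5, lay between 5.92 and 6.41 FPKM in SNI and between 3.03 and 3.72 in SNI + G15, and their part was not tested.

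**Figure D4:**
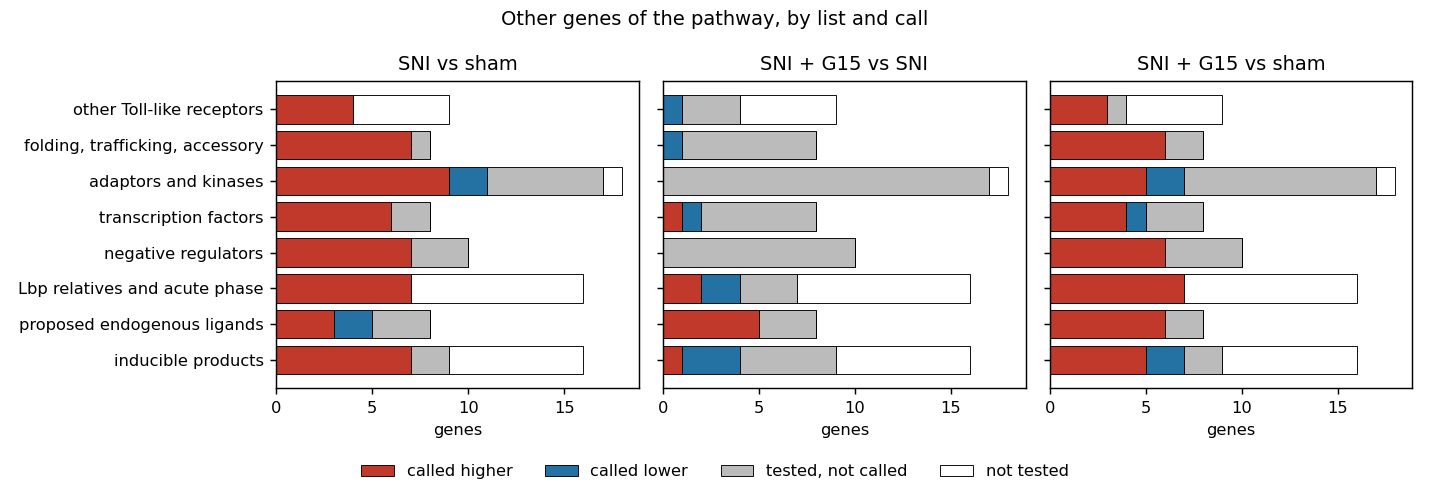
Number of genes (x axis) in each of the 8 lists of other pathway genes that edgeR called higher (red) or lower (blue), tested but not called (grey), or not tested (white), in the 3 comparisons. Some genes shown in red passed the filter only through injured groups, and Cxcl1 only through SNI + G15, which favoured these calls. Against sham, 23.3% of all tested genes were called higher for SNI and 21.4% for SNI + G15. Between SNI + G15 and SNI, 7.98% were called higher and 7.25% lower. Over all lists, 50 of 71 tested genes are red for SNI and 42 for SNI + G15, each compared with sham, with fewer among the ligands (3 of 8) for SNI and the adaptors and kinases (5 of 17) for SNI + G15, while in SNI + G15 against SNI 9 are red and 8 blue, 5 of the red ones being ligands.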

How the data were processed

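RNA-Seq covered 3 sham, 3 SNI and 3 SNI + G15 libraries of rat DRG. The authors deposited estimated counts and FPKM per gene (rat NCBI identifiers) and per transcript, and the authors also scaled them to TPM, which was not used here. The aligner, counter and strand setting are not given in the sources used here. The submitters' processing notes name the mouse builds GRCm38 and mm10, and the labels' extraction text names macrophages, neither of which matches rat DRG. Columns named Control were taken as sham because no other group was left. Estimated counts were rounded to whole numbers. Genes with at least 1 FPKM in at least 1 of 9 libraries were tested in each pair of groups with edgeR 4.0.16 (TMM, quasi-likelihood test, R 4.3.3), and called at a Benjamini-Hochberg adjusted p below 0.05. Alternatives used RLE scaling, DESeq2 1.42.0, no filter, limma 3.58.1 on log2(FPKM + 1) and log2(FPKM + 0.1), all libraries in 1 fit, a replicate block and leaving out each replicate. Calls of each list without SNI + G15 replicate 3 were added after seeing the data. The 9 genes, the gene lists and the tests were chosen with earlier results of these data known. Beyond the 9 genes, each list's called genes were named, at most the 3 with the largest log2 fold change per direction in each of the first 2 comparisons (SNI with sham, SNI + G15 with SNI). The 5 genes with the profile nearest to Lbp were named too. Library totals were between 18484557 and 18756736. The scripts were tested on simulated counts. Profile differences and motif matches are descriptions.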

Additional observations from a re-analysis of the deposited data

How the results depend on the processing

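Over 13 alternatives per comparison, the count of members called between SNI and sham was 6 with DESeq2, 8 with both limma fits and 7 in the others, including each replicate left out (7 to 7). Between SNI + G15 and sham it was 5 to 7 with replicates left out and 6 with DESeq2, with no filter and with both limma fits. For SNI + G15 against SNI, DESeq2 gave 0 and leaving out replicates 0 to 1, since Cd14 was the member at stake. The number of all genes called between SNI + G15 and SNI was 2179, against 1292 with the replicate block and 893 to 2333 with replicates left out. Replicates left out gave 5382 to 6237 genes between SNI and sham and 5101 to 6015 between SNI + G15 and sham. The log2 fold change of Lbp between SNI + G15 and SNI was 2.20 with limma on log2(FPKM + 1), whose pseudocount shrinks low values, against 2.39, and 2.32 to 2.44 with replicates left out.

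Directions turned only between SNI + G15 and SNI, for members not called. Tlr7 was at -0.038 and -0.056 with limma at pseudocounts of 1 and 0.1. With replicates left out the log2 fold change ran from -0.134 to 0.119 for Tlr7, -0.0977 to 0.0517 for Tlr2, -0.101 to 0.0764 for Tlr4, -0.0210 to 0.0938 for Myd88 and -0.0274 to 0.230 for Ticam1. The cause was not tested.

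Replicate numbers did not pair the libraries: 9 correlations of same-numbered libraries' deviations lay between -0.125 and 0.092, with 0 over 0.1. With the replicate block 7, 1 and 6 members were called, in the order SNI against sham, SNI + G15 against SNI and SNI + G15 against sham. Low counts of Ly96 and 3 libraries per group limit what could be detected.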
